A study of Mus musculus with 6 samples.

Results

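Sequenced RNA of 6 mouse liver tumors, 3 per genotype (WT and Top1mt-KO), was examined for the unfolded protein response of the endoplasmic reticulum (ER), the program by which a cell adjusts its protein folding machinery to its load of secreted proteins. The genes were 10 of the 30236 listed in the deposited table, picked by symbol: the chaperone genes Hspa5, Hsp90b1, Pdia4, Dnajb9 and Sdf2l1, the transcripts of the ATF6 and IRE1 branches Xbp1, Atf6 and Ern1, and those of the PERK branch, Eif2ak3 and Atf4. All 10 were among the 22677 genes tested. The mice were male C57BL/6, either WT or Top1mt -/-, the genotype abbreviated KO here, which lacks the mitochondrial topoisomerase in every cell of the animal and not in hepatocytes alone. Both genotypes received the carcinogen diethylnitrosamine on postnatal day 14 and the liver toxin carbon tetrachloride for 14 weeks from week 8, and tumors were taken at 22 weeks. The tissue is whole tumor, so fewer cells of a type and less RNA per cell cannot be told apart. The study describes the tumors of each genotype as independent, and the labels do not say whether each came from its own mouse, so the p-values measure the spread between these tumors. All values are the authors' log2 expression values, made by a transform that is not named and that may draw weakly expressed genes toward their mean. They are not corrected for gene length and are compared between tumors, not between genes. The depth behind them is unknown.

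Hepatocytes make and secrete most plasma proteins and rely on ER chaperones to fold them. When unfolded proteins build up, 3 sensors in the ER membrane respond. ATF6 is cut and its free part enters the nucleus, IRE1 (encoded by Ern1) splices the Xbp1 transcript so that an active XBP1 factor is made, and both factors switch on genes of chaperones and of protein disposal. PERK (encoded by Eif2ak3) phosphorylates the initiation factor eIF2α, which slows translation in general and raises translation of ATF4, the factor behind genes of amino acid supply and stress. PERK thus shares the eIF2α step with kinases that sense other stresses, mitochondrial ones included. The sensors act through protein cleavage, splicing and phosphorylation, none of which a gene's total transcript level shows, whereas the chaperone transcripts are the output of ATF6 and XBP1.

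ATF6 acts through the ER stress response element (ERSE), a CCAAT box and a CCACG separated by 9 bases, known from the start regions of ER chaperone genes such as Hspa5. RefSeq promoter windows on GRCm38.p6, each from 250 bases before to 50 bases after the start, were found for 9 of the 10 genes. The set of windows searched held none for Atf6. The full element with this spacing, searched on both strands, was in 2 of these 9 windows, Hspa5 and Hsp90b1, not in those of the chaperone genes Pdia4, Dnajb9 and Sdf2l1, and in 0.119% of all 32851 windows of the table. Hspa5 had it at position -65 from the start, and Hsp90b1 at -212 and, on the other strand, at -107. The related element ERSE-II, an ATTGG and a CCACG separated by 1 base, and the XBP1 site TGACGTGG were in 0 of the 9 windows, against 0.0365% and 0.676% of all windows. The composite site TGATGNAA, through which ATF4 acts with C/EBP factors, was in 0 of the 9 and in 3.97% of all. These counts concern exact letters in these windows and no further. The windows of both genes with the full element are shown with those of Sdf2l1, whose transcript varied most between tumors, and Atf4. Capitals mark each CCAAT and each CCACG in either direction.
Hspa5, chr2:34771840-34772139, plus strand: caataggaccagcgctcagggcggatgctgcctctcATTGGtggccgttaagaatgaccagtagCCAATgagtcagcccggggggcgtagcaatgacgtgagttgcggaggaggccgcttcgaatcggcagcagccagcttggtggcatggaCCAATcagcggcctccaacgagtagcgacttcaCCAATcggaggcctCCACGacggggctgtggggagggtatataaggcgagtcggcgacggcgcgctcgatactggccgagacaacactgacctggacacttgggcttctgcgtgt
Hsp90b1, chr10:86705395-86705694, minus strand: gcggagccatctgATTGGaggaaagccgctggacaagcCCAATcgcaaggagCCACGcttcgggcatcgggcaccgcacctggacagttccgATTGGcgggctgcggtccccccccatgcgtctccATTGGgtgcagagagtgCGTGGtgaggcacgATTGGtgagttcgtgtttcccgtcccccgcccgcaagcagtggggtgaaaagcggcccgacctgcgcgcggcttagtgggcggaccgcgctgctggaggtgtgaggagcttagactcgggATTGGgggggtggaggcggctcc
Sdf2l1, chr16:17132334-17132633, minus strand: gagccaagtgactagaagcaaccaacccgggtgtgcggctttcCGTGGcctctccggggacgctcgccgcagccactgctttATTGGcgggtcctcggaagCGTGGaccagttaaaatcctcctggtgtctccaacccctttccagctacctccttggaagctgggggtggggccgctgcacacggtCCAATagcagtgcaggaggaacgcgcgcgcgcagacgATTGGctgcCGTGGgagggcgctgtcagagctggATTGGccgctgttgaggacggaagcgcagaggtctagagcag
Atf4, chr15:80254934-80255233, plus strand: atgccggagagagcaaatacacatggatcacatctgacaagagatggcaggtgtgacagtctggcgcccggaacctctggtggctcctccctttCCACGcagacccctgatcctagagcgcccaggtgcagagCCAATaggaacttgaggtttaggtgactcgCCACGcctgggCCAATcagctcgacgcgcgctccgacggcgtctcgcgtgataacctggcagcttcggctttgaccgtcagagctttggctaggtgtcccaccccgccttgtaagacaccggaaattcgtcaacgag
CCAAT alone was in 7 of the 9 windows, against 37.4% of all windows, and CCACG alone in 7 of the 9, against 32.8%. The higher share among the 9 was not tested. Both are common in all windows, so a capital by itself does not set a gene apart. In Sdf2l1 and Atf4 no CCAAT and CCACG had the spacing of the element.

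A pair of libraries stood apart. Top1mt itself was 7.71, 5.99 and 8.01 in turn across WT replicates 1 to 3, and 5.58, 6.41 and 6.32 across KO replicates 1 to 3, so the library labelled WT replicate 2 lay below 2 of the 3 labelled KO. All directions below rest on the labels. In KO replicate 1 the transcript Gm42418 took 17.7% of the values summed on the linear scale, against 0.0199% to 0.387% in the other 5 libraries. Gm42418 was listed with Lars2, Gm15564 and Gm26917 as a mark of ribosomal RNA repeats. In KO replicate 1 these 3 were 20.06, 16.84 and 15.69. In the other libraries they were 8.44 to 12.67, 3.93 to 8.85 and 14.46 to 14.99. The share of ribosomal RNA in this library was not tested. Hepatocyte markers were high in every tumor, with 7 of 8 found and none below 13.02. Their summed level was 20.85 to 21.54 in WT and 21.09 to 21.65 in KO on the log2 scale, highest in KO replicate 1. The summed levels of plasma cell (8 of 8 markers found, 11.84 to 12.13 in WT and 11.60 to 12.15 in KO), macrophage (8 of 8, 12.59 to 13.62 and 12.49 to 13.11), bile duct (8 of 8, 12.20 to 13.08 and 11.80 to 12.80), stellate cell (8 of 8, 13.92 to 14.78 and 13.75 to 14.21), endothelial (8 of 8, 12.80 to 13.06 and 12.92 to 13.22) and T cell markers (8 of 8, 6.43 to 6.53 and 6.37 to 6.65) overlapped between genotypes. Those of red blood cells did not, at 11.88 to 12.81 in WT and 11.25 to 11.81 in KO (5 of 5 found). A few abundant genes carry several of these sums, Alb that of hepatocytes, Sdc1 that of plasma cells and Spp1 that of bile duct. Gene by gene, the KO mean was below the WT mean in 8 of 8 plasma cell, 6 of 8 bile duct and 7 of 8 stellate cell markers. It was below in 5 of 8 macrophage, 4 of 8 T cell, 3 of 7 hepatocyte and 2 of 8 endothelial markers. Over all genes tested it was below in 11860 of 22677. Plasma cell differences ran from -1.58 for Jchain to -0.01 for Cd79a, and 0 of the 8 separated the genotypes. The endothelial markers Pecam1 and Cdh5 and the hepatocyte marker Ttr were higher in KO without overlap, and T cell markers had 1 without overlap each way. The bile duct keratin gene Krt19 was 4.75 or more in the WT tumors and 4.38 or less in the KO tumors (log2 difference -2.68, SE 0.69, adjusted p = 0.987 with limma). Krt19 and Epcam (log2 difference -1.19) were the 2 bile duct markers without overlap. Over all genes tested, 8.28% had no overlap in either direction. KO replicate 1 was the lowest tumor in 5 of the 8 stellate cell markers, Col1a1, Col3a1, Pdgfrb, Des and Dcn. It was the highest in Reln, at 13.50, which carries the sum in that tumor. In WT replicate 1 and KO replicate 2 Col3a1, at 13.38 and 13.05, lay above Reln, at 13.02 and 11.93. The part of other cell types in the results below was not tested.

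The 5 chaperone transcripts did not separate the genotypes, while they differed between the KO tumors. Hspa5 encodes BiP, the main ER chaperone, which also holds the sensors inactive. It was 14.02, 13.94 and 13.78 in turn across WT replicates 1 to 3, and 14.02, 13.37 and 14.25 across KO replicates 1 to 3. The WT tumors lay close together, and the KO tumors held both the highest and the lowest value. Hsp90b1, the ER form of HSP90, was 13.90, 13.29 and 13.35 in the WT tumors and 13.88, 12.91 and 13.33 in the KO tumors. Pdia4, a disulfide isomerase, was 12.81, 12.21 and 12.18 in the WT tumors and 12.79, 11.97 and 12.38 in the KO tumors. For both genes WT replicate 1 and KO replicate 1 were the highest pair, nearly equal, and KO replicate 2 the lowest. WT replicate 1 was the highest tumor in 17.1% of all genes tested. Dnajb9, a cochaperone of BiP that restrains IRE1, was 9.83, 10.15 and 9.66 in the WT tumors and 10.22, 9.89 and 9.44 in the KO tumors. It ordered the tumors otherwise, with KO replicate 3 the lowest.

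Sdf2l1, an ER protein that works with BiP and its cochaperones, spread the furthest. It was 9.35, 9.64 and 9.27 in the WT tumors and 10.74, 7.69 and 9.15 in the KO tumors. KO replicate 1 lay above every other tumor and KO replicate 2 below every other, a difference of 3.05 on the log2 scale, or 8.30 times on return to the linear scale. The KO range of Sdf2l1 was larger than that of 99.1% of genes tested, whereas its WT range of 0.38 was larger than that of 33.0%. The KO ranges of the other chaperones were 0.77 to 0.97, larger than those of 58.5% to 68.4% of genes.

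**Figure D1:**
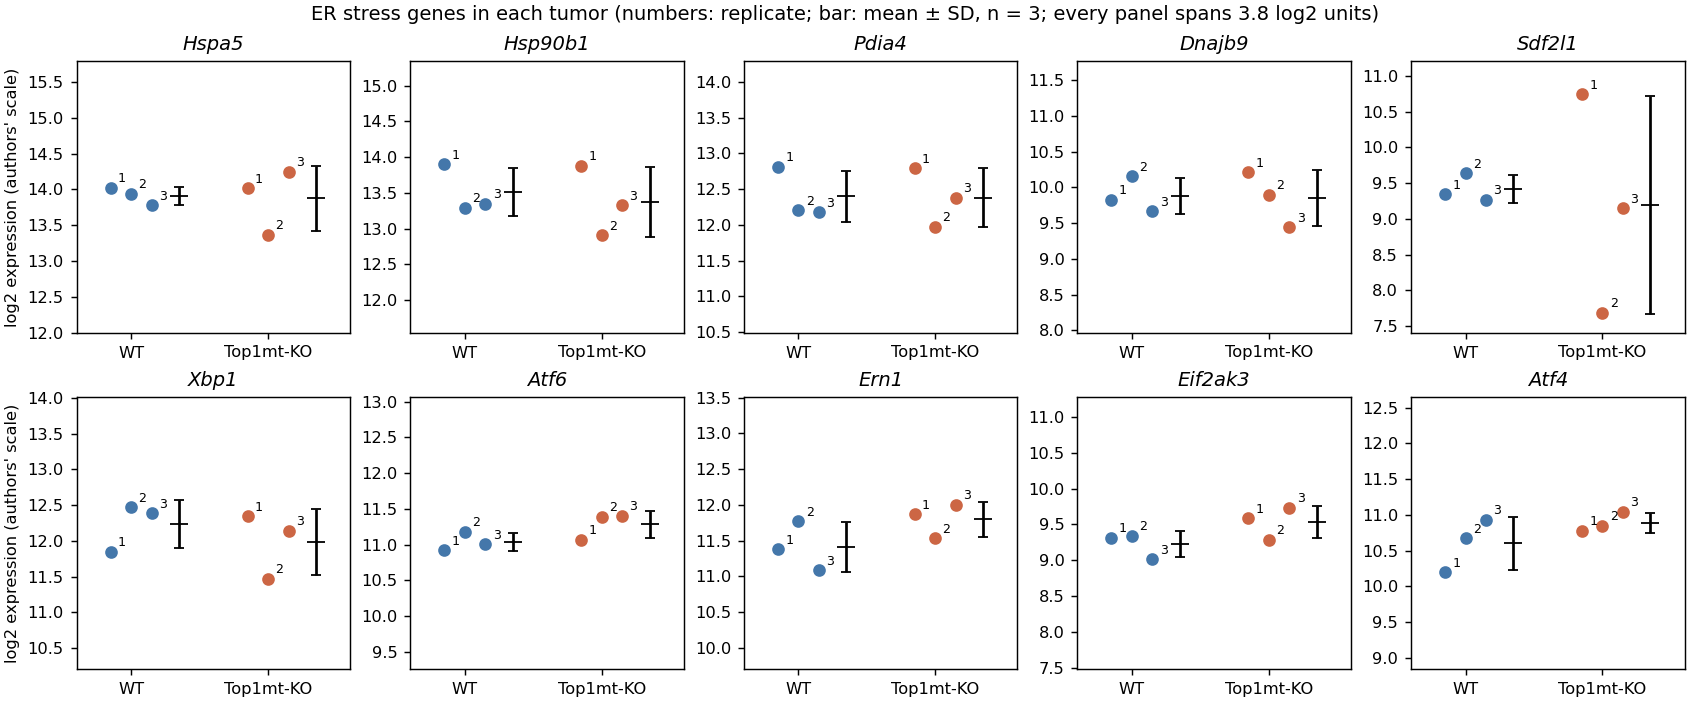
Log2 expression of each of the 10 genes (y axis, the authors' scale, each panel spanning the same number of log2 units) in the 3 WT and 3 Top1mt-KO tumors. Points are tumors numbered by replicate, and bars give the mean ± SD with n = 3. The KO values of Sdf2l1 run from 7.69 to 10.74, around WT values of 9.27 to 9.64.

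Between genotypes these genes differed by less than the spread of the tumors. Hspa5 was 13.91 ± 0.12 (SD, n = 3) in WT tumors against 13.88 ± 0.46 (SD, n = 3) in KO tumors. Its log2 fold change was -0.04 with a 95% interval of -0.66 to 0.59 and an adjusted p of 0.999 by limma. Hsp90b1 had a log2 fold change of -0.14 (-0.83 to 0.54), Pdia4 one of -0.02 (-0.62 to 0.59) and Dnajb9 one of -0.03 (-0.54 to 0.48). That of Sdf2l1 was -0.22, with an interval of -1.71 to 1.26, the widest of the 10 genes. The limma fit gave each of the 10 genes an adjusted p of 0.999. By exact two-sided permutation tests, which allow no p below 0.1 here, p was 0.7 to 1 for the chaperones. The signs hung on single tumors. Without KO replicate 2 the log2 fold change was 0.22 for Hspa5, 0.09 for Hsp90b1, 0.19 for Pdia4 and 0.53 for Sdf2l1, and without KO replicate 1 it was -0.10, -0.39, -0.22 and -0.998. Median centring of the libraries also turned Hspa5, Pdia4 and Dnajb9 to values of 0.018, 0.038 and 0.023.

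Xbp1, Atf6 and Ern1 did not move as a block. Xbp1 was 11.85, 12.47 and 12.38 in the WT tumors and 12.35, 11.47 and 12.14 in the KO tumors, again lowest in KO replicate 2. Its log2 fold change was -0.25 (95% interval -0.87 to 0.37, exact two-sided permutation p = 0.5), and 0.01 without KO replicate 2. These values do not part spliced from unspliced Xbp1. Atf6 was 10.92, 11.18 and 11.00 in the WT tumors and 11.07, 11.39 and 11.40 in the KO tumors. KO replicates 2 and 3 lay above all WT tumors and KO replicate 1 below WT replicate 2, so the groups overlapped. The log2 fold change of Atf6 was 0.25 (95% interval -0.10 to 0.60, exact two-sided permutation p = 0.2), and between 0.20 and 0.36 with any library left out. KO replicate 2, lowest in 4 of the 5 chaperones and in 3555 of the 22677 genes tested, was thus second in Atf6. Ern1 was 11.38, 11.77 and 11.08 in the WT tumors and 11.87, 11.53 and 12.00 in the KO tumors. Again 2 KO tumors were above all WT tumors and the third was not. Its log2 fold change of 0.39 (95% interval -0.10 to 0.88, exact two-sided permutation p = 0.2) was the highest of the 10 genes, 0.57 without WT replicate 2 and 0.22 without WT replicate 3.

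Eif2ak3 and Atf4 varied little among the KO tumors. Eif2ak3 was 9.32, 9.34 and 9.02 in turn across WT replicates 1 to 3, and 9.59, 9.29 and 9.73 across KO replicates 1 to 3. KO replicate 2 lay between the WT values. Atf4 was 10.20, 10.68 and 10.93 in the WT tumors and 10.78, 10.85 and 11.04 in the KO tumors, where WT replicate 3 exceeded 2 KO tumors. The KO ranges were 0.44 for Eif2ak3 and 0.27 for Atf4, larger than those of 34.7% and 19.1% of genes. Their WT ranges were 0.32 and 0.74, larger than those of 28.1% and 57.7% of genes. Atf6 and Ern1 had KO ranges of 0.33 and 0.47, larger than those of 24.6% and 37.1% of genes. The 95% interval of the log2 fold change ran from -0.07 to 0.70 for Eif2ak3 and from -0.18 to 0.75 for Atf4, and both kept a value above 0 with any library left out. For Atf4 it fell from 0.29 with all libraries to 0.084 without WT replicate 1. KO replicate 3 was the highest of the 6 tumors in Atf6, Ern1, Eif2ak3 and Atf4 as well as in Hspa5, against 16.1% of all genes tested. Among the members, Eif2ak3 differed least from Hspa5 across the tumors, by 0.17 on average after each gene was centred, against 0.22 for Hsp90b1 and 0.56 for Sdf2l1, and 2.59% of genes outside the 10 came closer.

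**Figure D2:**
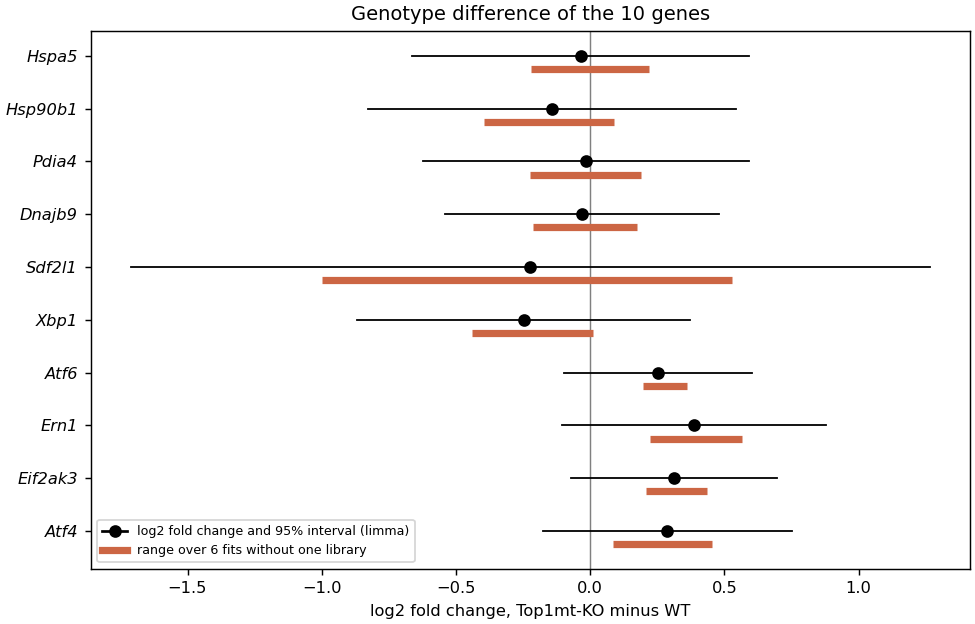
Log2 fold change, Top1mt-KO minus WT, of each of the 10 genes (x axis). Black points and lines are the limma estimate and its 95% interval, and orange bars span the fits that each left out 1 of the 6 libraries. All intervals include 0, and the orange bars of the chaperones and Xbp1 cross 0, while those of Atf6, Ern1, Eif2ak3 and Atf4 stay above it.

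The background for these counts was set by all genes tested. An adjusted p under 0.05 by limma was reached by 0% of them and by 0 of the 10 members. An unadjusted p under 0.05 was reached by 4.34% of genes and by 0 members. The genotypes did not overlap, with KO higher, in 3.95% of genes and, with KO lower, in 4.33%, together 8.28%, and in 0 of the 10 members. Over all genes tested the median log2 fold change was -0.02, and over the 10 members it was also -0.02, with 4 above and 6 below 0. The 4 above 0 were Atf6, Ern1, Eif2ak3 and Atf4.

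The chaperone transcripts were then set against those of PERK and ATF4 within each tumor, as a description without a test. The mean of the 5 centred chaperone values was 0.20, 0.07 and -0.13 in turn across WT replicates 1 to 3, and 0.55, -0.61 and -0.07 across KO replicates 1 to 3. Sdf2l1, at 10.74 in KO replicate 1 and 7.69 in KO replicate 2, weighed most in the values of these 2 tumors. KO replicate 1 exceeded KO replicate 2 in all 5 chaperones. The mean of Eif2ak3 and Atf4 was -0.31, -0.05 and -0.09 in the WT tumors and 0.12, 0.004 and 0.33 in the KO tumors. The chaperone mean overlapped widely between the genotypes, whereas the mean of Eif2ak3 and Atf4 did not overlap by a narrow margin, although either gene alone did. That margin, between WT replicate 2 and KO replicate 2, was about as wide as the gap between their medians over genes tested, 5.65 and 5.71. Single genes did not overlap in 8.28% of all genes tested, and the share for pairs of genes was not counted. Chaperones minus PERK and ATF4 came to 0.51, 0.12 and -0.05 in the WT tumors and 0.43, -0.62 and -0.40 in the KO tumors, with a mean of 0.19 ± 0.28 (SD, n = 3) for WT tumors against -0.19 ± 0.55 (SD, n = 3) for KO tumors. The groups overlapped, because KO replicate 1 lay among the WT tumors. The difference between genotypes was -0.39. Leaving out KO replicate 2 gave -0.18 and leaving out KO replicate 1 gave -0.70. With WT replicate 2, the library of low Top1mt, left out it was -0.43.

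Many of the other ER folding genes also had their extremes in KO replicates 1 and 2. These 20 genes, chosen for their known role, include calnexin and calreticulin, further disulfide isomerases, cochaperones of BiP and the secreted stress proteins Manf and Creld2. KO replicate 1 was the highest and KO replicate 2 the lowest of the 6 tumors in 9 of the 20, namely Canx, Pdia3, Pdia6, Hyou1, Dnajb11, Dnajc3, Dnajc10, Manf and Creld2. Over all genes tested this order held in 4.34%. The order was noticed in Sdf2l1 before it was counted here, and it held in 7 of the 20 after quantile normalization and in 8 after median centring. KO replicate 1 exceeded KO replicate 2 in 17 of the 20, against 54.7% of all genes tested, with a median difference of 0.51 on the log2 scale, against 0.06 over all genes. The value was 1.86 for Creld2, 1.63 for Manf, 1.30 for Pdia6 and 1.13 for Dnajc3, genes named after their values were seen. Creld2 was 9.95, 9.46 and 9.56 in the WT tumors and 10.39, 8.52 and 9.25 in the KO tumors, nearly the order of Sdf2l1. KO replicate 1 was also the library with the high Gm42418 and the highest summed hepatocyte markers, a sum carried by Alb. KO replicate 2 had neither the lowest hepatocyte sum (21.09, against 20.85 in WT replicate 3) nor a raised Gm42418. Among single hepatocyte markers, Serpina1a was highest in KO replicate 1 (16.58) and lowest in KO replicate 2 (14.60). KO replicate 2 was also the lowest in Apoa1 and Cps1, whereas WT replicate 3 was in Alb, Ttr and Apob, and KO replicate 3 in Hnf4a. The part of hepatocyte content in this order was not tested.
Between genotypes 10 of the 20 were higher and 10 lower, with a median log2 fold change of 0.01 and 0 whose groups did not overlap. The median was -0.11 without KO replicate 1 and 0.19 without KO replicate 2. Creld2 (-0.27) and Ppib (0.27), a prolyl isomerase, had the furthest values. Ppib was 10.45, 11.07 and 10.41 in the WT tumors and 11.37, 10.53 and 10.85 in the KO tumors.

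**Figure D3:**
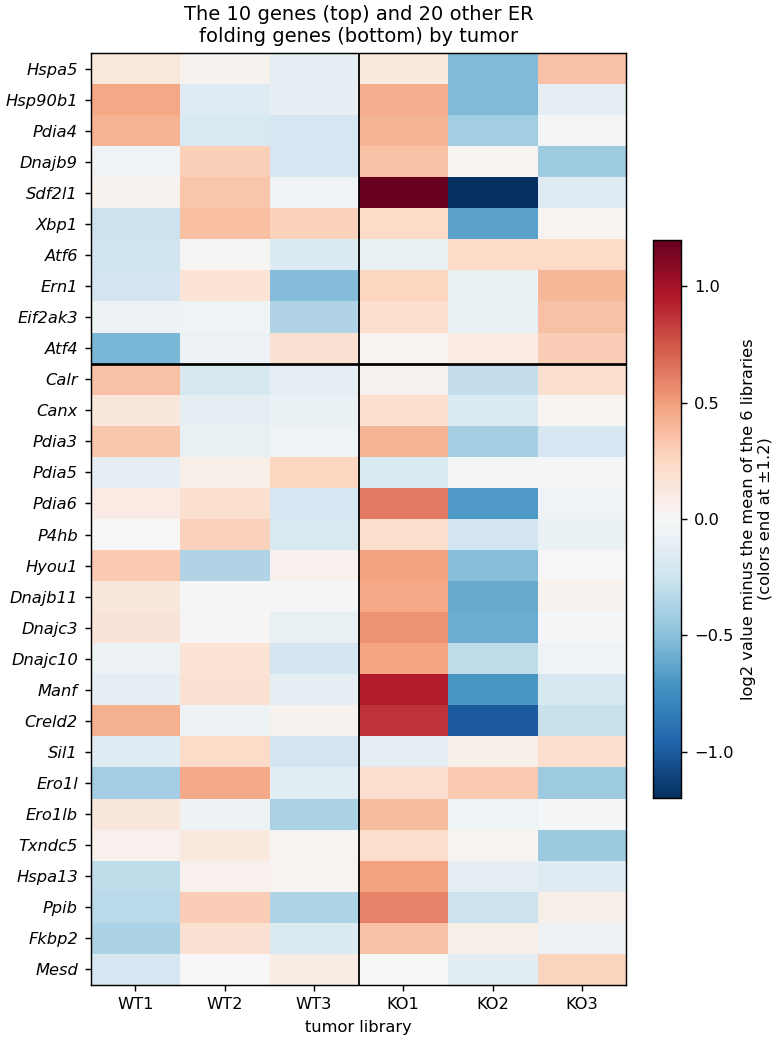
Log2 values of the 10 genes (above the line) and 20 other ER folding genes (below it), each centred on its mean over the 6 tumors (columns). Red is above and blue below the mean, with colors ending at 1.2 log2 units. Column KO1 is red and column KO2 blue in most folding genes, while Atf6 and Atf4 do not show this order.

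Genes of ER-associated degradation and of protein entry into the ER were also high in KO replicate 1. Of 24 genes, KO replicate 1 was the highest tumor in 18, against 14 of the 20 folding genes and 18.8% of all genes tested. It exceeded KO replicate 2 in 23 of the 24. It was highest with KO replicate 2 lowest in 5, or in 2 after median centring. Derl3, which helps to move misfolded proteins out of the ER, had the widest gap, with 7.55 in KO replicate 1 and 4.82 in KO replicate 2. Between genotypes 17 were higher and 7 lower, with a median log2 fold change of 0.08, or -0.06 without KO replicate 1. Srprb, a subunit of the receptor that docks ribosomes at the ER, was the 1 gene of the 24 without overlap, against 8.28% of all genes tested. It was 7.67, 7.40 and 7.75 in the WT tumors and 8.20, 8.02 and 8.03 in the KO tumors, a log2 difference of 0.47 (SE 0.17, adjusted p = 0.999 with limma).

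Further sensors and the regulators around them included Atf6b, the CREB3 family, the proteases that release ATF6 and partners of IRE1. Of these 15, the KO mean was above the WT mean in 5 and below it in 10, and the list had a median log2 fold change of -0.10, or -0.038 without KO replicate 2. Mbtps2, which makes the second cut that frees ATF6, was 7.77, 7.80 and 7.87 in the WT tumors and 8.01, 7.98 and 8.00 in the KO tumors. It was the 1 gene of the 15 without overlap, against 8.28% of all genes tested, though the log2 difference was 0.18 (SE 0.14, adjusted p = 0.999 with limma). Atf6b overlapped between genotypes, and its log2 fold change was -0.43. Among 5 transcripts known to be cut by IRE1, 1 had a KO mean above that of WT and 4 below it. Their median was -0.50, which shrank to -0.03 when KO replicate 1 was left out and to -0.12 when WT replicate 1 was. Scara3, a scavenger receptor family member, was 6.64, 6.27 and 6.27 in the WT tumors and 5.68, 5.98 and 5.72 in the KO tumors (log2 difference -0.60, SE 0.25, adjusted p = 0.999 with limma). It was the 1 gene of these 5 without overlap, against 8.28% of all genes tested. Col6a1, a collagen gene of this list and also of stellate cells, was 6.92 in KO replicate 1 against 8.24 to 10.01 in the other tumors, and that tumor was also the lowest in 5 of the 8 stellate markers, as given above.

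The wider PERK and ATF4 arm was most often highest in KO replicate 3. Of 20 genes (the other eIF2α kinases, the phosphatase subunits and known targets), KO replicate 3 was the highest tumor in 12, against 16.1% of all genes tested, and KO replicate 1 in 3. The mean of the 20 centred values was -0.25, -0.18 and -0.33 in the WT tumors and 0.06, -0.07 and 0.76 in the KO tumors. The means of KO replicates 1 and 2 were close, but single genes differed in both directions. KO replicate 1 minus KO replicate 2 was 1.66 for Trib3 and 1.33 for Ddit3, against -0.94 for Chac1 and -0.65 for Gadd45a, on the log2 scale and chosen after their values were seen. Between genotypes 15 were higher and 5 lower, with a median log2 fold change of 0.51, or 0.26 without KO replicate 3. An unadjusted p under 0.05 by limma was found for 6 of the 20, 5 higher and 1 lower in KO, against 4.34% of all genes tested. An adjusted p under 0.05 by limma was found for 0. The groups did not overlap in 2 genes with KO higher and 2 with KO lower, against 3.95% and 4.33% of all genes tested. This list was drawn up with earlier results of these data known and is no independent support.
In the eIF2α phosphatase, the inducible subunit Ppp1r15a and the constitutive subunit Ppp1r15b went opposite ways, each without overlap. Ppp1r15a was 7.47, 7.26 and 7.26 in the WT tumors and 7.58, 7.87 and 8.23 in the KO tumors, a log2 difference of 0.56 (SE 0.21, adjusted p = 0.999 with limma). Ppp1r15b was 11.04, 11.17 and 11.26 in the WT tumors and 10.97, 10.89 and 10.81 in the KO tumors, a log2 difference of -0.27 (SE 0.13, adjusted p = 0.999 with limma). The asparagine synthetase gene Asns was 8.96, 8.01 and 8.72 in the WT tumors and 9.57, 9.35 and 10.24 in the KO tumors. Its log2 difference was 1.16 (SE 0.30, adjusted p = 0.987 with limma), without overlap. Cebpb, a factor that pairs with ATF4, was 9.37, 9.50 and 9.14 in the WT tumors and 8.72, 8.58 and 8.16 in the KO tumors. This was a non-overlap in the other direction, with a log2 difference of -0.84 (SE 0.18, adjusted p = 0.938 with limma). Of the remaining eIF2α kinases, Eif2ak1, Eif2ak2 and Eif2ak4 had log2 fold changes of -0.02, -0.19 and 0.10, all with overlapping groups.

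**Figure D4:**
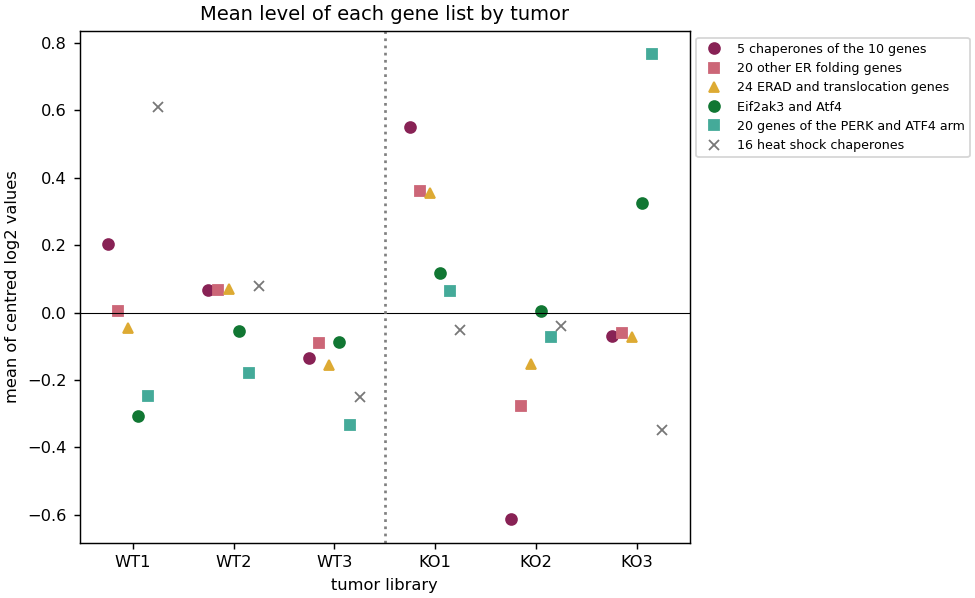
Mean of the centred log2 values (y axis) of each gene list in each of the 6 tumors (x axis), with 1 symbol per list. The ER folding lists are highest in KO1 and lowest in KO2 (0.55 and -0.61 for the 5 chaperones), apart from the ERAD list, whose WT3 value is about as low as KO2, and the PERK and ATF4 arm is highest in KO3 (0.76).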

How the data were processed

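The 6 libraries were stranded and, per the study's methods, made from RNA of tumors of the same size. Per the labels and the study's methods, the authors trimmed reads with Trimmomatic 0.36, counted uniquely mapped reads per gene with featureCounts and used DESeq2. The submitters' processing notes name STAR 2.5.1 and GRCm38, while the methods name BWA and an older mouse build. The deposited table holds log2 expression values per symbol, from -2.24 to 22.0, normalized between libraries by a transform that is not named. Counts and depth could not be recovered, so no count model was run. The file holds 0 further columns of per-sample values.

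The genotype comparison used limma 3.58.1 under R 4.3.3 (lmFit, eBayes with trend, Benjamini-Hochberg adjustment over all genes tested, threshold 0.05), on genes whose mean lay above the lowest 25%. The code was tested on simulated data. A difference is KO minus WT. Single values were also compared by exact permutation over 20 regroupings. The members and lists were chosen with earlier results of these data known. Named genes were the members, Top1mt, up to 4 genes per list with the largest changes among those without overlap (otherwise the 2 largest changes), and the 3 genes nearest to Hspa5; others were named after their values were seen. Promoter windows came from RefSeq. Alternatives were limma without trend, quantile normalization, median centring, no filter, a filter at the median (50%), a replicate block and each library left out.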

Additional observations from a re-analysis of the deposited data

How the results depend on the processing

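No gene passed an adjusted p of 0.05 in the limma fit, where 985 had an unadjusted p under 0.05, and the count was 4 with no filter on low values and 0 to 1 with one library left out, the 1 without KO replicate 1. The count at an unadjusted p under 0.05 was 590 with the filter at the median, where fewer genes were tested. None of the 10 members passed under any alternative, with a smallest adjusted p of 0.794 by limma, for Atf6 without KO replicate 1. Chaperones minus PERK and ATF4 kept a value below 0 throughout, from -0.70 to -0.18 with one library left out and -0.40 with quantile normalization. Median centring turned Hspa5, Pdia4 and Dnajb9 to 0.018, 0.038 and 0.023. With one library left out, log2 fold changes ran from -0.22 to 0.22 for Hspa5, -0.39 to 0.089 for Hsp90b1, -0.22 to 0.19 for Pdia4, -0.21 to 0.17 for Dnajb9, -0.998 to 0.53 for Sdf2l1 and -0.44 to 0.011 for Xbp1. The replicate block gave 0 genes past the threshold. Deviations from the genotype mean correlated at -0.12, -0.08 and 0.05 between tumors 1, 2 and 3 of each genotype, too little to treat same-numbered tumors as pairs. The study describes WT and KO mice as littermates, and the labels give no litter. Replicate numbers need not follow litters, so shared litters could not be checked. The causes were not tested. The unknown depth leaves the counting error of each value unknown.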

Other observations

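Heat shock chaperones of the cytosol and mitochondria were most often highest in WT replicate 1. This held in 12 of 16 genes, against 17.1% of all genes tested, and Hspe1 had KO replicate 1 highest and KO replicate 2 lowest. Hspa1b, the inducible HSP70 and 1 of the 12, was 9.58 in WT replicate 1 and 5.98 to 8.25 in the other tumors (named after its values were seen). In KO 2 of the 16 were higher and 14 lower, with a median log2 fold change of -0.16, or -0.0058 without WT replicate 1. Dnaja1, a cochaperone of HSP70, was the 1 gene of the 16 without overlap, against 8.28% of all genes tested. It was 11.14, 11.24 and 10.93 in the WT tumors and 10.83, 10.80 and 10.47 in the KO tumors (log2 difference -0.40, SE 0.16, adjusted p = 0.999 with limma).

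The 3 genes outside the 10 whose centred values lay nearest to those of Hspa5 over the 6 tumors were Ccdc181, Gm16035 and Ptprb, the endothelial receptor phosphatase, with mean absolute differences of 0.0498, 0.0566 and 0.0664 on the log2 scale. None of the 3 is in the ER lists. Ptprb was 12.03, 11.80 and 11.59 in the WT tumors and 11.82, 11.32 and 12.09 in the KO tumors. In red blood cell markers, Hba-a2 and Hbb-bs were lower in KO without overlap, by -0.90 and -0.82, while Alas2 differed by 0.01. Of all genes tested, 4.33% were lower in KO without overlap.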
